A study of Mus musculus with 20 samples.

Results

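The collagen genes were taken as all genes whose symbol has the form of a collagen chain, the prefix Col, a type number, the letter a and a chain number. The arrays named 42 such genes among 18193 genes in all, each read by the probe set (the group of short oligonucleotides that reports 1 transcript) with the highest mean over the 20 arrays. Of the 42, 36 were tested for differences and 6 were not, because they were not above the 40th percentile of their array on at least 2 arrays. The 6 were Col2a1, Col6a4, Col6a5, Col9a2, Col10a1 and Col17a1, and their intensities lay between 0.337 and 12.1 on all arrays.

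Collagens are the main structural proteins of the extracellular matrix, built from alpha chains wound into a helix, secreted and assembled outside the cell. Fibrillar collagens form the tensile fibrils of connective tissue and are made mainly by fibroblasts, type IV collagens form the sheets of basement membranes around vessels, nerves and glia, and type VI collagens form beaded filaments that link both. The FACIT collagens sit on the surface of fibrils, the multiplexins lie at basement membranes, and the transmembrane collagens are anchored in the cell surface. In a sympathetic ganglion collagens lie in the capsule, around neurons with their satellite glia and around vessels, and neuroblastic tumors differ in how much such stroma they hold.

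By class, the 42 genes comprised 11 fibrillar (10 tested), 6 type IV (6 tested), 5 type VI (3 tested), 9 FACIT (8 tested), 2 multiplexin (2 tested), 4 transmembrane (3 tested), 3 hexagonal network collagens (2 tested) and 2 others, Col7a1 and Col26a1 (2 tested).

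RNA was hybridised to Affymetrix mouse genome arrays, 1 array per sample, and the values are intensities on a linear scale. Wild-type mice (genetic background 129+Ter/SvJcl) gave 4 ganglion samples and 2 neurosphere cultures, which are floating spheres of cells grown from tissue. Mice with a MYCN transgene (genetic background mixed 129+Ter/SvJcl) gave the other samples: 2 ganglia and 4 tumors of MYCN Tg homozygotes, 2 tumors of MYCN Tg homozygotes that also lacked Mdk, and 4 tumors and 2 tumorsphere cultures of MYCN Tg hemizygotes. The transgenic lines were kept by crossing to wild-type 129+Ter/SvJcl mice. The MYCN protein drives transcription of growth genes, the MYCN gene is often amplified in high-risk neuroblastoma, and Mdk encodes the growth factor midkine. The labels used here give no age, do not name the promoter that drives the transgene, and leave unsaid if each sample is a different animal or culture. The p-values therefore reflect sample-to-sample spread only, part of which may be technical. The wild-type and transgenic groups differ in labelled background as well as in the transgene, and the effects of these cannot be told apart. As a check of the knockout label, Mdk read 42.6 and 35.5 in both knockout tumors and 268 to 297 in the homozygous tumors.

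Some samples stood apart before any collagen was considered. Wild-type ganglia 1 and 2 had summed skeletal muscle marker intensities of 3757 and 1989, against 81.2 and 42.3 in wild-type ganglia 3 and 4, and homozygous ganglion 2 and hemizygous tumor 3 had 2905 and 4660. Mdk knockout tumor 2 had 1765 against 60.5 in knockout tumor 1, and homozygous tumor 2 had 697 against 37.5 to 62.9 in the other homozygous tumors. Liver markers summed to 4520, 1280, 161 and 105 in the wild-type ganglia and to 1036 and 1152 in the homozygous ganglia. Ttr alone, one of those markers, read 7007 in neurosphere 1 and 4.27 in neurosphere 2, where Alb read 12.1 and 6.46. The labels give no sex, but Xist, the RNA that coats the inactive X chromosome of female cells, read 2411, 2481, 44 and 30.7 in the wild-type ganglia and 2707 and 2543 in the homozygous ganglia. The tumors held both levels, with 18, 2334, 2366 and 11.9 in homozygous, 2215 and 17 in Mdk knockout and 12, 11, 15.8 and 1527 in hemizygous tumors. The split between wild-type ganglia 1 and 2 and ganglia 3 and 4 therefore ran along muscle markers, liver markers and Xist at once, which cannot be told apart. Sympathetic neuron markers summed to between 14379 and 27020 in wild-type ganglia and to 139 and 68.1 in the neurospheres, against 6376 and 6594 in the tumorspheres. The ratio of the 3' to the 5' probe set of beta-actin, which rises as RNA is degraded or shortened, ran from 4.36 to 9.14 in wild-type ganglia, from 2.44 to 2.81 in homozygous tumors and from 1.96 to 2.69 in hemizygous tumors. The part of these differences in the collagen values was not tested. In bulk tissue, fewer cells of a type and less RNA per cell cannot be told apart.

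The promoters of the genes that carry the largest differences were read from RefSeq (build GRCm38.p6), which gave a window for 33 of the 42 genes. The 250 bases upstream of the start are shown for Col1a2 and Col3a1, which had the largest falls in culture, and for both annotated starts of Col9a1. The chosen probe set of Col9a1 rose in both tumor types, while its second probe set, described below, did not. Capitals mark the motifs searched on both strands, which were the CCAAT box, the GC box GGGCGG, the E-box CACGTG and the TATA box TATAAA, none of which overlaps another in these windows.
Col1a2, chr6:4505368-4505617, plus strand: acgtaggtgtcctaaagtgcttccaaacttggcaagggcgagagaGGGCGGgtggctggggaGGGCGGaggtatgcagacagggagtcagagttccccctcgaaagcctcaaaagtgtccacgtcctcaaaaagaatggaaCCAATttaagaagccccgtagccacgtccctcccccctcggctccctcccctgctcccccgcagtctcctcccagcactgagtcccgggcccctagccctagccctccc
Col3a1, chr1:45311288-45311537, plus strand: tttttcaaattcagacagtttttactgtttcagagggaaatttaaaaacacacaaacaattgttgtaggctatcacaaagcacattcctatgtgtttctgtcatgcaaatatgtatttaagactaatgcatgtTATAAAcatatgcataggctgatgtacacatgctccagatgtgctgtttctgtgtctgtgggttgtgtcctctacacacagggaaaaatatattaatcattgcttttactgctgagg
Col9a1, upstream start, chr1:24177360-24177609, plus strand: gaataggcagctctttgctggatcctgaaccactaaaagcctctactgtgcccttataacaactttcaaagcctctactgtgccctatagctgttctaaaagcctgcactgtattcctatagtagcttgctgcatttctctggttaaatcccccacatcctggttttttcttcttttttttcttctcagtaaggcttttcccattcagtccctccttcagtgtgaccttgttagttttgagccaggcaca
Col9a1, downstream start, chr1:24194953-24195202, plus strand: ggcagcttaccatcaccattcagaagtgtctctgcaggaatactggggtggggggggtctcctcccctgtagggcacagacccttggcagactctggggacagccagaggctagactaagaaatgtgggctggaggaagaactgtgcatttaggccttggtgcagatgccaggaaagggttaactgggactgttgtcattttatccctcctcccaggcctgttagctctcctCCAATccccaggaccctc
The Col1a2 window held GGGCGG at 205 and 188 bases and CCAAT at 109 bases before the start. The Col3a1 window held TATAAA at 117 bases, and the window of the downstream Col9a1 start held CCAAT at 18 bases. Counting 1 window per gene, CCAAT was found for 12 of the 33 collagen genes (36.4%) and for 34.5% of 27025 genes, and TATAAA for 5 (15.2%) and 13.0%. GGGCGG was found for 20 (60.6%) and 32.9%. CACGTG, the canonical E-box to which MYC proteins bind, was in none of the 33 windows and in 6.05% of all. These shares describe letters in a short window and not binding.

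**Figure D1:**
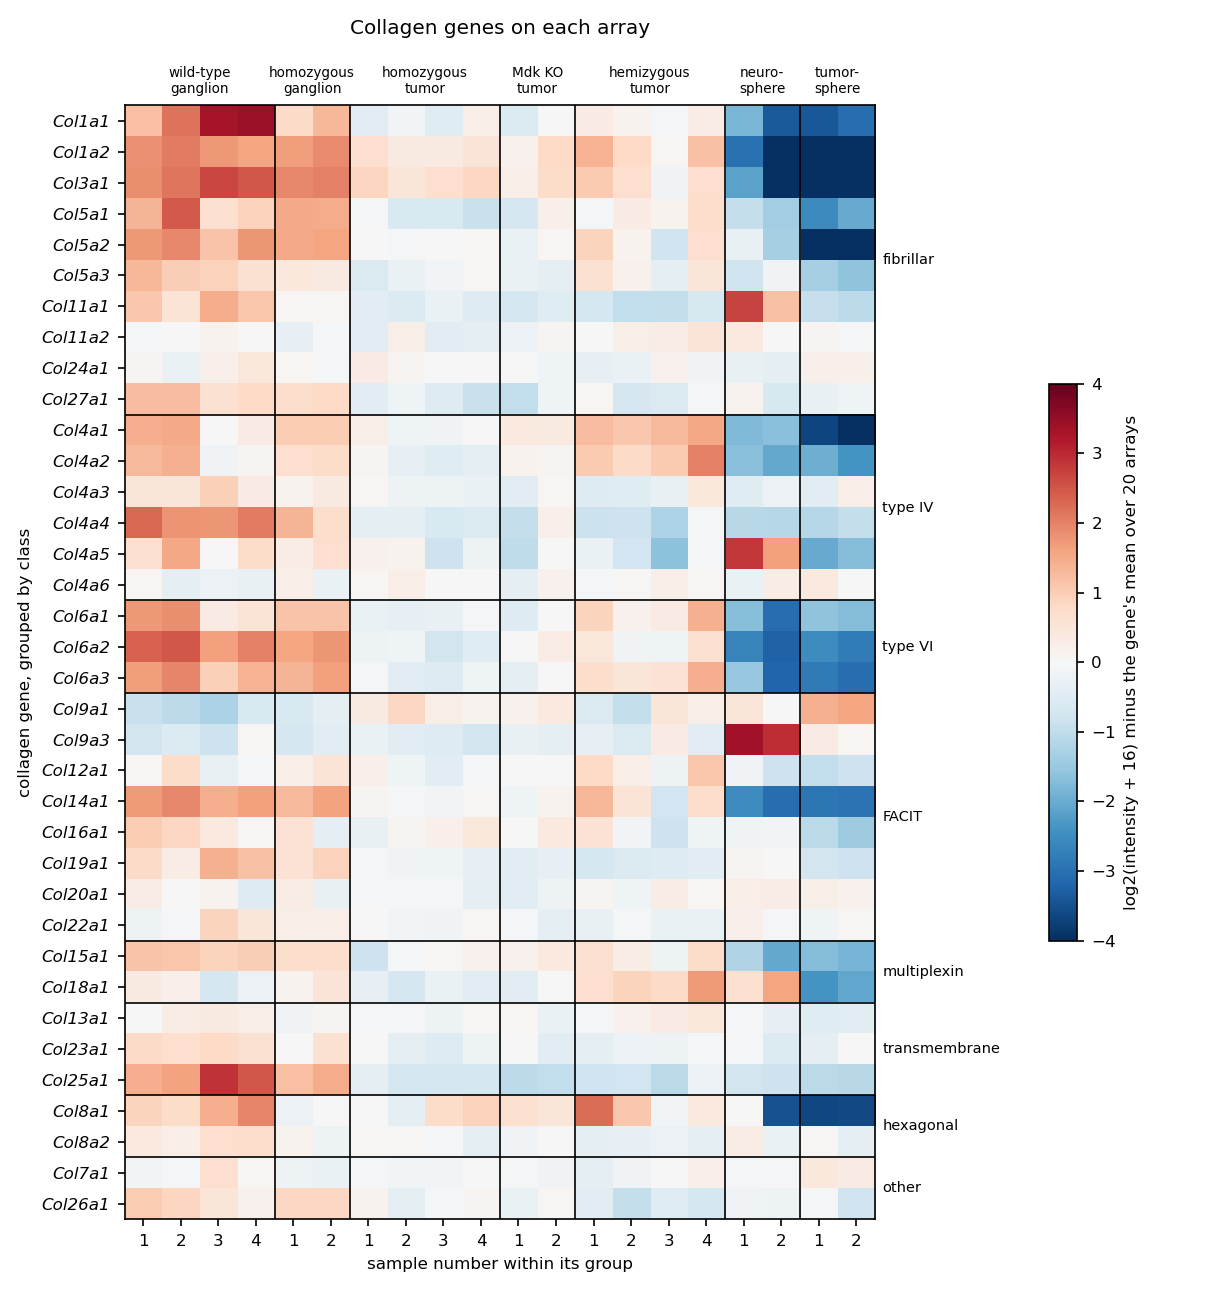
Each row is 1 of the 36 tested collagen genes, ordered by class, and each column 1 of the 20 arrays, ordered by group; colour gives log2(intensity + 16) minus the gene's mean over the 20 arrays. Colours stop at 4 in each direction. Col1a1, Col1a2, Col3a1 and the type VI genes were above their mean in ganglia and below it in both sphere cultures, whereas Col9a1, Col9a3, Col4a5 and Col18a1 followed other patterns.

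In tumors of homozygous mice most collagen genes were lower than in wild-type ganglia. Of 36 tested, 22 fell and 1 rose at an adjusted p under 0.05 (limma, Benjamini-Hochberg over all 15132 genes tested), while 26.6% of all genes fell and 23.1% rose. The median difference over the 36 was -0.94 on the log2(intensity + 16) scale, against -0.12 over all genes. All log2 differences below are on that scale, with their standard error, and understate the change of dim genes.

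The fibrillar class had the most members among the genes that fell. Col1a1, an alpha chain of type I collagen, the main fibril of connective tissue, read 440, 880, 1974 and 2160 in the wild-type ganglia and 129, 168, 128 and 222 in the homozygous tumors. Col3a1, the type III chain of pliable tissues, read 4215, 5123, 7434 and 6467 and then 2102, 1613, 1853 and 2062. Col1a2, the other type I chain, read 2777, 3287, 2614 and 2347 and then 1240, 993, 984 and 1116. In all 3 genes every tumor lay below every wild-type ganglion, and for Col1a1 the ganglia themselves spread widely, with samples 3 and 4 the highest. The share of all genes with groups so separated was not counted, here or below, so separation adds no support to a call. Col1a1 fell by 2.73 ± 0.40 (SE; adjusted p = 1.9e-05), Col3a1 by 1.57 ± 0.44 (adjusted p = 0.0062) and Col1a2 by 1.33 ± 0.32 (adjusted p = 0.0018, all limma). With wild-type ganglia 1 and 2 alone as controls, Col3a1 differed by -1.29 and no longer passed (adjusted p = 0.060).

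The chains that limit fibril diameter followed. Col5a1 fell by 1.89 ± 0.32, Col5a2 by 1.62 ± 0.30 and Col5a3 by 1.19 ± 0.22, and Col11a1, which with type V collagen nucleates fibrils, fell by 1.5 ± 0.25. Col27a1, a fibrillar collagen described mainly in cartilage, fell by 1.47 ± 0.24. In total 8 of 10 tested fibrillar genes fell and none rose. The remaining 2 were dim, with differences of -0.27 ± 0.18 for Col11a2 and -0.02 ± 0.16 for Col24a1.

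**Figure D2:**
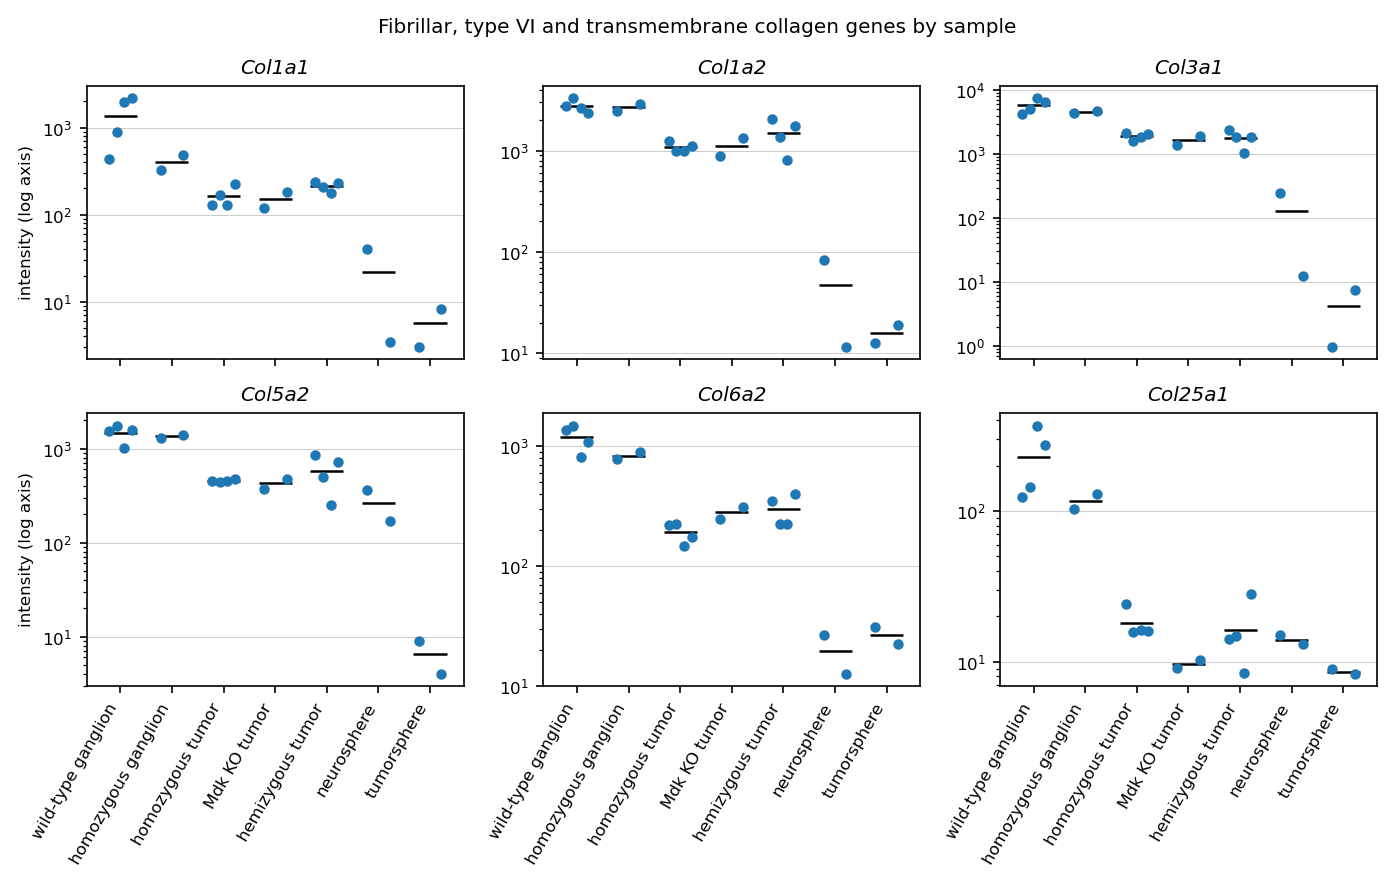
Intensity (log axis) of 6 collagen genes in every sample by group; points are samples and bars group means. In each of the 6 panels the homozygous tumors lie below the wild-type ganglia, and both sphere cultures lie below the wild-type ganglia. The share of all genes with such separation was not counted.

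All 3 tested type VI genes fell: Col6a1 by 1.36 ± 0.35, Col6a2 by 2.51 ± 0.23 and Col6a3 by 1.79 ± 0.30. Col6a2 read 1362, 1486, 823 and 1087 in wild-type ganglia and 221, 224, 148 and 177 in homozygous tumors, without overlap. The Col6a1 call was lost against wild-type ganglia 3 and 4 alone (-0.68, adjusted p = 0.092). For that gene ganglia 1 and 2 read 604 and 656 and ganglia 3 and 4 only 218 and 259.

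The type IV genes split. Col4a4, a chain of the specialised network of kidney and other basement membranes, read 174, 119, 115 and 149 in wild-type ganglia and 14.3, 14.3, 9.27 and 10.8 in homozygous tumors, and fell by 2.45 ± 0.26 (limma, adjusted p = 3.6e-07). Its partner and chromosomal neighbour Col4a3 was dim and passed at -0.71 ± 0.22, but not on the mean of all probe sets (-0.30, adjusted p = 0.16), with a pseudocount of 1 (adjusted p = 0.053), against wild-type ganglia 1 and 2 alone (adjusted p = 0.050) or without the 6 arrays whose intensity of the muscle actin gene Acta1 was over 100 (-0.79, adjusted p = 0.051). Col4a1, the chain found in nearly all basement membranes with Col4a2, read 2092, 2178, 755 and 946 in wild-type ganglia and 909, 662, 677 and 761 in homozygous tumors. Here the wild-type ganglia were high only in samples 1 and 2, and the groups overlapped. Col4a1 passed at -0.84 ± 0.27 and Col4a2 at -0.94 ± 0.32, but against wild-type ganglia 3 and 4 alone they differed by -0.18 (adjusted p = 0.43) and -0.25 (adjusted p = 0.47). Without wild-type ganglion 1 alone the values were -0.63 and -0.73, and without wild-type ganglion 2 alone -0.61 and -0.69, none of which passed. Without the arrays high in muscle actin Col4a1, Col4a2 and Col6a1 differed by -0.12, -0.23 and -0.65 and did not pass. Those arrays include wild-type ganglia 1 and 2, so this setting also leaves only wild-type ganglia 3 and 4. The 2 settings are therefore not independent, here or below. Col4a5 differed by -0.91 ± 0.37 (adjusted p = 0.051) and Col4a6, dim on all arrays, by 0.31 ± 0.18, and neither passed.

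Among the transmembrane collagens, Col25a1, a neuronal collagen whose shed ectodomain is found in amyloid plaques, read 125, 144, 369 and 274 in wild-type ganglia and 24.3, 15.8, 16.2 and 16 in homozygous tumors. It fell by 2.73 ± 0.26 (limma, adjusted p = 1.1e-07), and the lowest ganglion was above the highest tumor. Sympathetic neuron markers moved the same way, with 5 of 7 tested members lower in homozygous tumors (26.6% of all genes) and sums of 5851 to 7126 there. The part of these markers in the Col25a1 value was not tested. Col26a1 passed at -0.69 ± 0.21, but not against wild-type ganglia 3 and 4 alone (-0.37, adjusted p = 0.16), without the arrays high in muscle actin (-0.26, adjusted p = 0.39) or with a pseudocount of 1 (adjusted p = 0.069). The hexagonal network gene Col8a2 fell by 0.57 ± 0.17, Col23a1 fell by 0.98 ± 0.18, and Col13a1 differed by -0.29 ± 0.15. Col8a2 was dim, at 10.1 to 19.5 in wild-type ganglia. It was above the 40th percentile on 3 arrays, all wild-type ganglia, so it entered the test only through the group where it was high. Of the multiplexins, Col15a1 fell by 1.21 ± 0.24 and Col18a1 differed by -0.34 ± 0.27 (adjusted p = 0.30).

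Of the 8 tested FACIT genes, Col14a1 and Col19a1 fell, by 1.68 ± 0.30 and 1.10 ± 0.19, and Col9a1 rose. Col9a1, a chain of type IX collagen that decorates type II fibrils in cartilage and vitreous, read 19.9, 15.9, 11.6 and 27.4 in wild-type ganglia and 70.1, 101, 64 and 57.8 in homozygous tumors. Every tumor was above every wild-type ganglion, and the rise was 1.36 ± 0.26 (limma, adjusted p = 3.3e-04). A second probe set of Col9a1, whose name marks it as able to match several transcripts, did not follow, with means of 22.2 in wild-type ganglia and 14.8 in homozygous tumors and a log2 difference of -0.33. On the mean of both probe sets the difference was 0.52 and did not pass. Where the probe sets lie relative to the pair of starts shown above was not analysed here. Col19a1 is the chromosomal neighbour of Col9a1 on chromosome 1 and differed in the opposite direction. Col2a1, the type II chain, was among the genes not tested, with intensities between 1.08 and 9.80 in wild-type ganglia and between 1.12 and 4.37 in homozygous tumors, and cartilage markers summed to 30.4 to 70.5 and 25.5 to 45.7.

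In tumors of hemizygous mice 21 of 36 collagen genes were lower than in the same wild-type ganglia and 2 were higher, against 25.6% and 27.0% of all genes, and the median was -0.72 (all genes -0.05). Both comparisons share the wild-type ganglia. Col1a1 read 234, 205, 178 and 228, all below the ganglia, and fell by 2.35 ± 0.40. Col3a1 read 2410, 1821, 1031 and 1847 and fell by 1.73 ± 0.44, and Col1a2 read 2058, 1358, 808 and 1741 and fell by 0.95 ± 0.32. The 3 genes were below the wild-type ganglia in every hemizygous tumor, a separation whose share over all genes was not counted. Col3a1 and Col1a2 were lowest in tumor 3. The Col1a2 call was lost without that tumor (-0.69, adjusted p = 0.075), against wild-type ganglia 3 and 4 alone (-0.81, adjusted p = 0.086), without the arrays high in muscle actin (-0.54, adjusted p = 0.26), with a pseudocount of 1 (-0.96, adjusted p = 0.073) and under quantile normalization (-0.56, adjusted p = 0.17). Col5a1 fell by 1.07 ± 0.32, Col5a2 by 1.41 ± 0.30 and Col11a1 by 1.87 ± 0.25, the last to between 8.58 and 15.2. Against wild-type ganglia 3 and 4 alone, Col5a1 differed by -0.50 and did not pass (adjusted p = 0.13). Without the arrays high in muscle actin, which leaves the same wild-type ganglia, it did not pass either (-0.45, adjusted p = 0.21). Col16a1 (-0.69 ± 0.28) and Col22a1 (-0.50 ± 0.20) passed narrowly, and their calls were lost in several alternatives, among them without hemizygous tumor 3 (-0.46 and -0.49).

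Col4a4 and Col25a1 had the lowest differences, at -2.73 ± 0.26 and -2.83 ± 0.26. Col4a4 read 5.25, 5.77, 0.486 and 21.7 and Col25a1 14.2, 14.8, 8.42 and 28.0 in the hemizygous tumors. Col6a2 fell by 1.93 ± 0.23 to between 225 and 403. Col6a1 and Col6a3 differed by -0.42 ± 0.35 and -0.67 ± 0.30 and did not pass, and Col15a1 passed at -0.66 ± 0.24, but not without hemizygous tumor 3 (-0.47, adjusted p = 0.11) or without the arrays high in muscle actin (-0.38, adjusted p = 0.32). Col19a1, Col26a1 and Col27a1 fell by 1.48 ± 0.19, 1.28 ± 0.21 and 1.28 ± 0.24.

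The 2 genes that rose were Col18a1 and Col9a1. Col18a1, the heparan sulfate collagen of vascular basement membranes from which endostatin is cut, read 141, 123, 59.6 and 88.2 in wild-type ganglia and 177, 209, 190 and 383 in hemizygous tumors, without overlap, and rose by 1.10 ± 0.27 (limma, adjusted p = 0.0019). Col9a1 read 28.2, 18.0, 77.6 and 63.8 and rose by 0.76 ± 0.26 (limma, adjusted p = 0.022). Tumor 2 lay within the range of the ganglia and tumor 1 just above it, and the call was lost in 8 of the alternatives, among them without tumor 3 (0.53), without tumor 4 (0.60), without wild-type ganglion 3 (0.65), without the arrays high in muscle actin (0.51) and on the mean of both probe sets (0.31). The second Col9a1 probe set alone differed by -0.13. Col4a1 and Col4a2 differed by 0.47 ± 0.27 and 0.55 ± 0.32 and did not pass. Against wild-type ganglia 3 and 4 alone they were higher, by 1.13 (adjusted p = 4.7e-05) and 1.24 (adjusted p = 9.5e-04).

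**Figure D3:**
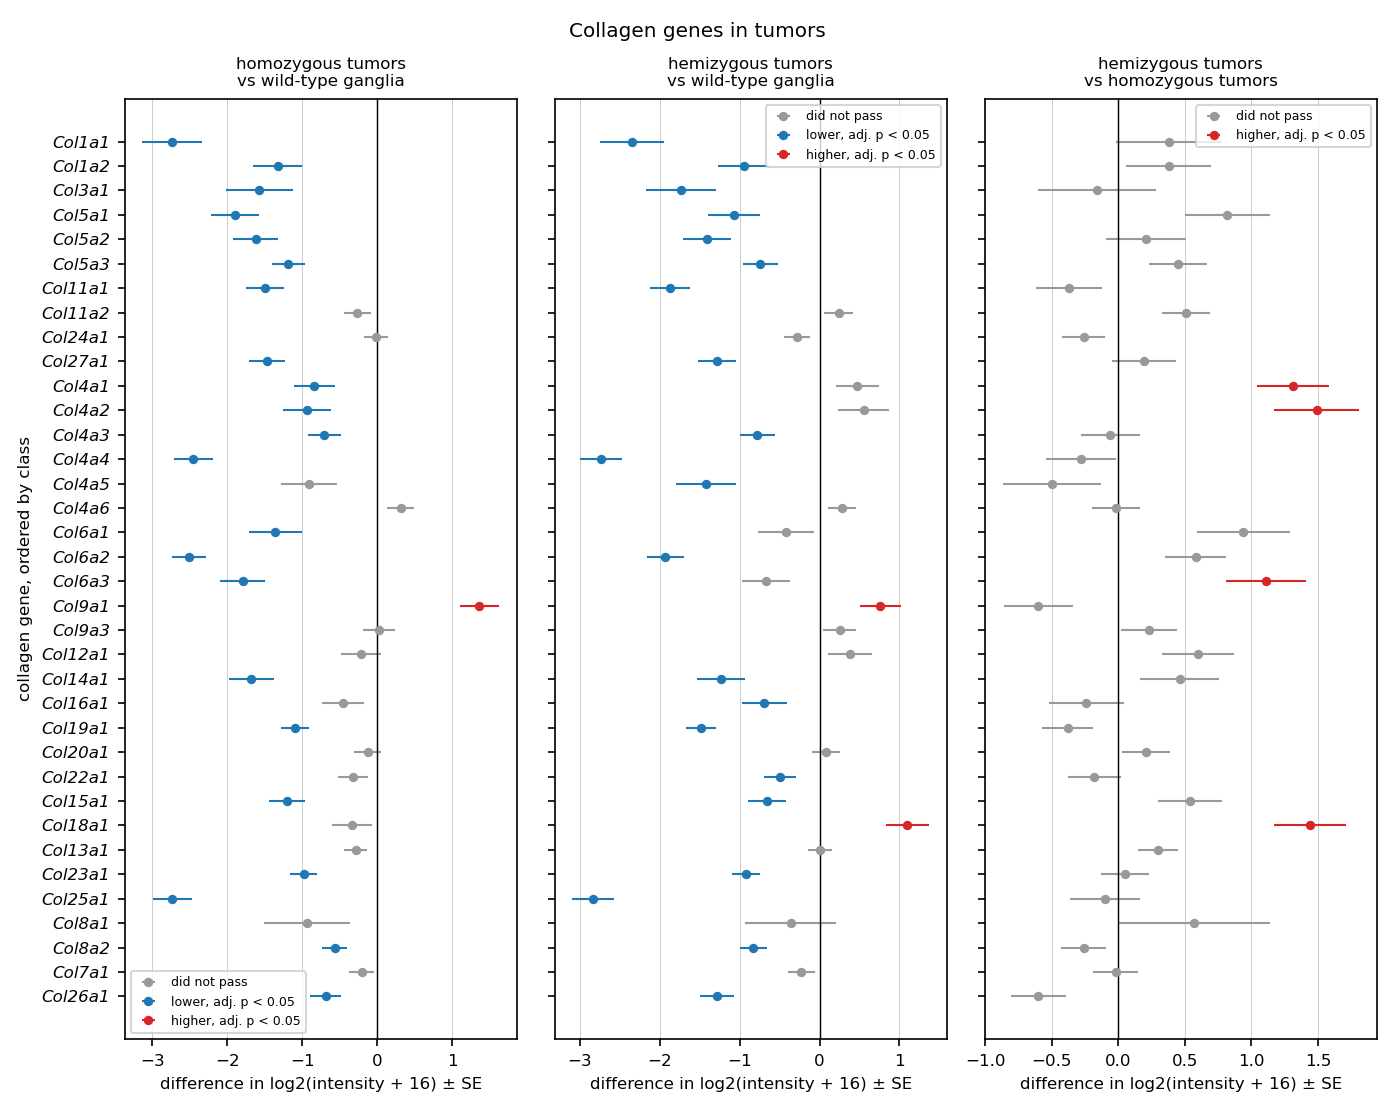
Differences in log2(intensity + 16) with their standard errors for the 36 tested collagen genes, ordered by class, in homozygous tumors against wild-type ganglia (left), hemizygous tumors against wild-type ganglia (middle) and hemizygous against homozygous tumors (right); blue and red mark genes that passed. Left and middle, 22 and 21 genes are lower; right, the 4 that passed are higher.

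Genes that make, bind or cut collagen moved unevenly in the tumors. Of 11 tested fibril partners, which bind collagen fibrils, 8 fell in homozygous and 7 in hemizygous tumors, with 0 and 1 that rose and medians of -1.77 and -1.72. Over all genes 26.6% fell and 23.1% rose in homozygous tumors, and 25.6% fell and 27.0% rose in hemizygous tumors. The smallest p in homozygous tumors belonged to Thbs2 (-3.0 ± 0.20), an adhesive matrix glycoprotein, and to Lum (-3.22 ± 0.51) and Prelp (-1.96 ± 0.32), small leucine-rich proteoglycans. Of 9 degradation genes 6 fell in homozygous tumors, led by Mmp2 (-3.06 ± 0.25), a gelatinase, with Ctsk (-1.67 ± 0.29), a collagen-cutting cathepsin, and Timp3 (-1.83 ± 0.36), a protease inhibitor. In hemizygous tumors 4 of the 9 fell and 2 rose, among them Timp1 (1.55 ± 0.24).

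The counts of the intracellular machinery lay near or under the shares of all genes. Of 18 hydroxylase and chaperone genes, 4 rose and 5 fell in homozygous tumors, against 23.1% and 26.6% of all genes. In hemizygous tumors 4 rose and 3 fell, against 27.0% and 25.6%. The medians in homozygous and hemizygous tumors were -0.28 and 0.28. P4ha3, 1 of the 18, was above the 40th percentile on 2 arrays only, both wild-type ganglia. It therefore entered the test through the group where it was high. Colgalt1, which adds galactose to hydroxylysine, rose by 0.99 ± 0.18 and 1.75 ± 0.18, whereas Sparc, a collagen-binding secreted protein placed on the list as a collagen chaperone, fell by 1.93 ± 0.22 and 1.18 ± 0.22. P3h2, a prolyl 3-hydroxylase of type IV collagen, rose by 1.35 ± 0.25 and 0.69 ± 0.25. Serpinh1, the collagen chaperone Hsp47, differed by -0.85 ± 0.40 and -0.12 ± 0.40 and did not pass. Among 6 processing genes, 1 rose and 2 fell in homozygous tumors and 2 rose and 2 fell in hemizygous tumors. Tll2, a protease of the procollagen C-proteinase family, fell by 1.36 ± 0.20 in each, and Pcolce, its enhancer, fell by 2.13 ± 0.47 and 1.28 ± 0.47. Tll2 was above the 40th percentile in 3 wild-type ganglia and 1 homozygous ganglion only, so it entered the test through the group where it was high.

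Basement membrane partners were split, with 3 higher and 6 lower of 13 in homozygous and 2 higher and 5 lower in hemizygous tumors. The shares over all genes were 23.1% higher and 26.6% lower in homozygous tumors, and 27.0% and 25.6% in hemizygous tumors. Several counts of the short lists in this paragraph lie near or under these shares. Lama2, a laminin chain of muscle and Schwann cell membranes, fell by 2.74 ± 0.26 and 3.56 ± 0.26, and Nid1, which joins laminin to type IV collagen, by 2.27 ± 0.26 and 1.78 ± 0.26, while the proteoglycan gene Agrn rose by 1.65 ± 0.27 and 0.93 ± 0.27. Of 7 collagen receptors 3 and 2 fell and none rose, led in homozygous tumors by Itga1 (-1.84 ± 0.22), the alpha chain of a type IV collagen receptor. Of 4 cross-linking genes 1 fell in each tumor type, the lysyl oxidase gene Loxl3 (-0.73 ± 0.15 and -0.38 ± 0.15). Of 7 genes of the TGF-beta pathway, a main inducer of collagen genes, 1 rose and 1 fell in homozygous tumors, while 4 rose and 2 fell in hemizygous tumors. Tgfbr3, a co-receptor, fell by 2.48 ± 0.20 and 1.81 ± 0.20, and Tgfbr1 rose by 1.19 ± 0.16 and 0.93 ± 0.16.

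Markers of some other cell types were also lower in the tumors, where 26.6% (homozygous) and 25.6% (hemizygous) of all genes were lower. Of 9 tested fibroblast markers 6 were lower in both tumor types, with sums of 8192 to 12412 in wild-type ganglia, 1722 to 2673 in homozygous and 225 to 2101 in hemizygous tumors. Dcn and Lum stand on both the fibroblast and the fibril partner list. Of 6 Schwann and satellite glia markers 6 were lower in both tumor types, with sums of 5634 to 6720, 494 to 638 and 40.2 to 310. The fibroblast markers Pi16 and Dpp4 were at or under 17.4 in all tumors. In the wild-type ganglia Pi16 read 33.1, 40.6, 2.59 and 1.72 and Dpp4 32.8, 35.7, 9.33 and 3, so ganglia 3 and 4 were also under 17.4. Clec3b, another marker on that list, had means of 12.4 in wild-type ganglia and 12.4 in homozygous tumors. Pdgfra read 163 to 247 in wild-type ganglia and 27.0 to 31.6 in homozygous tumors. Adipocyte markers summed to 1374 to 5924 in wild-type ganglia, 587 to 950 in homozygous and 315 to 2083 in hemizygous tumors. Macrophage sums overlapped, at 766 to 1905, 733 to 1034 and 661 to 1730. The part of fibroblast, glial and adipocyte content in the collagen differences was not tested.

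In ganglia of homozygous mice no collagen gene passed. In homozygous against wild-type ganglia 0 of 36 rose or fell in the limma fit, with 5 at an unadjusted p under 0.05, against 3.99% of all genes higher and 1.02% lower, and the median was -0.21 (all genes -0.03). The smallest adjusted p values belonged to Col11a1 (-0.96 ± 0.31, adjusted p = 0.080), Col4a4 (-0.96 ± 0.31, adjusted p = 0.085) and Col1a1 (-1.48 ± 0.49, adjusted p = 0.091), none of which passed. Col1a1 read 323 and 490 in the homozygous ganglia, close to wild-type ganglia 1 and 2 (440 and 880) and far from 3 and 4 (1974 and 2160). Against ganglia 3 and 4 alone 7 collagen genes passed, with Col1a1 at -2.33, Col25a1 at -1.33, Col11a1 at -1.20 and Col4a1 at 0.86, and against ganglia 1 and 2 alone none passed. Both homozygous ganglia were at the Xist level of ganglia 1 and 2. Col3a1, Col1a2, Col5a2 and Col6a3 differed by -0.32 ± 0.54, -0.03 ± 0.39, -0.09 ± 0.36 and 0.02 ± 0.36. Col9a1 read 28.0 and 35.2, both above all wild-type ganglia, with a difference of 0.47 ± 0.32 (adjusted p = 0.41). The fibroblast sums were 9842 and 10311 in homozygous ganglia, within the range of the wild-type ganglia.

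Between homozygous tumors and homozygous ganglia, which share the genotype, 14 of 36 collagen genes fell and none rose, against 12.3% and 9.35% of all genes. The median was -0.71 (all genes -0.03). The lowest were Col6a2 (-2.05 ± 0.28), Col5a1 (-2.04 ± 0.39), Col25a1 (-1.97 ± 0.31), Col6a3 (-1.81 ± 0.36) and Col5a2 (-1.53 ± 0.36). Col6a2 read 783 and 894 in the ganglia and 148 to 224 in the tumors, and Col5a2 1310 and 1386 against 439 to 480. Every tumor was below both ganglia in these genes, but they were chosen as the lowest in this comparison, so this adds no support. Col1a2 fell by 1.30 ± 0.39, and Col4a1 by 1.04 ± 0.32, from 1535 and 1558 to between 662 and 909, and both calls were lost on leaving out either ganglion. Without homozygous ganglion 2 the calls of Col5a2 (-1.49, adjusted p = 0.078) and Col6a3 (-1.67, adjusted p = 0.053) were lost too, and without the arrays high in muscle actin that of Col6a3 (-1.62, adjusted p = 0.055). Col1a1 and Col3a1 differed by -1.25 ± 0.49 (adjusted p = 0.077) and -1.25 ± 0.54 (adjusted p = 0.11), although all 4 tumors were below both ganglia. The ganglion group held 2 samples, and without homozygous ganglion 2, which carried muscle markers, 4 collagen genes passed, and without homozygous ganglion 1, 9 passed. Of 11 fibril partners 8 fell, among them Thbs2 (-2.18 ± 0.24).

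In tumors without Mdk no collagen gene differed at the threshold from homozygous tumors. The limma fit called 0 of 36, with 0 at an unadjusted p under 0.05, and the background was 0% of all genes higher and 0.00661% lower. The median was -0.02 (all genes 0.00). Col3a1 read 1381 and 1930, Col1a1 120 and 181, and Col4a1 991 and 981 in the Mdk knockout tumors. Col3a1 and Col1a1 overlapped the homozygous tumors (1613 to 2102 and 128 to 222), and Col4a1 lay above all 4 of them (662 to 909). The largest difference was that of Col6a2, 0.52 ± 0.28 with a 95% confidence interval of -0.06 to 1.10. The intervals were -1.11 to 0.94 for Col1a1, -1.35 to 0.92 for Col3a1 and -0.29 to 1.08 for Col4a1. With 2 knockout samples, differences within these intervals were not excluded, and the result does not show that the tumors were alike. Each interval is for 1 gene, without adjustment for the number of genes tested.

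Hemizygous tumors had more of 4 collagen transcripts than homozygous tumors, and 3 of the 4 belong to basement membranes. Col4a1 read 1784, 1626, 1896 and 2214 in hemizygous tumors against 909, 662, 677 and 761 in homozygous tumors. Col4a2 read 411, 333, 415 and 825 against 208, 148, 133 and 143. Col18a1 read 177, 209, 190 and 383 against 81.3, 59.8, 85.3 and 72.8. In none of the 3, which were picked because they passed here, did the groups overlap. Col4a1 was higher by 1.31 ± 0.27 (limma, adjusted p = 0.0068), Col4a2 by 1.49 ± 0.32 (limma, adjusted p = 0.0094) and Col18a1 by 1.44 ± 0.27 (limma, adjusted p = 0.0035). Among all genes 3.46% were higher and 2.74% lower. Col4a1 and Col4a2 are neighbours on chromosome 8, on opposite strands, and their RefSeq windows (chr8:11312827-11313076 and chr8:11312555-11312804) each lie within the annotated span of the other gene, for which reason the sequences are not shown.

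The fourth gene, Col6a3, read 416, 355, 375 and 705 against 232, 177, 169 and 216 and was higher by 1.11 ± 0.30 (limma, adjusted p = 0.032). Although the groups did not overlap, this call was lost on leaving out any homozygous tumor or hemizygous tumor 1 or 4, with differences of 0.90 to 1.19 in those fits, and without the arrays high in muscle actin (1.15, adjusted p = 0.092). Col6a1 and Col6a2 differed by 0.94 ± 0.35 (adjusted p = 0.12) and 0.58 ± 0.23 (adjusted p = 0.14). Fibrillar genes did not pass: Col1a1 differed by 0.38 ± 0.40, Col1a2 by 0.38 ± 0.32, Col3a1 by -0.16 ± 0.44, Col5a1 by 0.82 ± 0.32 and Col5a2 by 0.21 ± 0.30. Col9a1 differed by -0.60 ± 0.26, Col15a1 by 0.54 ± 0.24 and Col25a1 by -0.10 ± 0.26. The median of the 36 was 0.21 (all genes 0.06).

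Vascular markers differed between these tumors in the same direction. Of 8 endothelial markers 5 were higher in hemizygous tumors and none lower, with sums of 470 to 742 against 202 to 258, and of 9 pericyte and smooth muscle markers 3 were higher and none lower, with sums of 3200 to 5572 against 1463 to 2257. The shares over all genes were 3.46% higher and 2.74% lower. No tumor overlapped between the groups in either sum. The endothelial marker Kdr read 109 to 211 in hemizygous and 45.7 to 63.4 in homozygous tumors, and the pericyte marker Rgs5 981 to 1636 and 405 to 521. Fibroblast sums were not higher in hemizygous tumors (225 to 2101 against 1722 to 2673). The part of vessel content in the Col4a1, Col4a2 and Col18a1 values was not tested. Of 13 basement membrane partners, none rose or fell in this comparison, with 5 at an unadjusted p under 0.05 in the limma fit, and Lama4 and Nid1 differed by 0.64 ± 0.41 and 0.49 ± 0.26. Among the other lists, Fn1, the fibronectin gene, was higher by 1.45 ± 0.30, Timp1 by 1.24 ± 0.24, Mmp14 by 1.02 ± 0.29, Itga1 by 1.09 ± 0.22 and Colgalt1 by 0.76 ± 0.18.

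**Figure D4:**
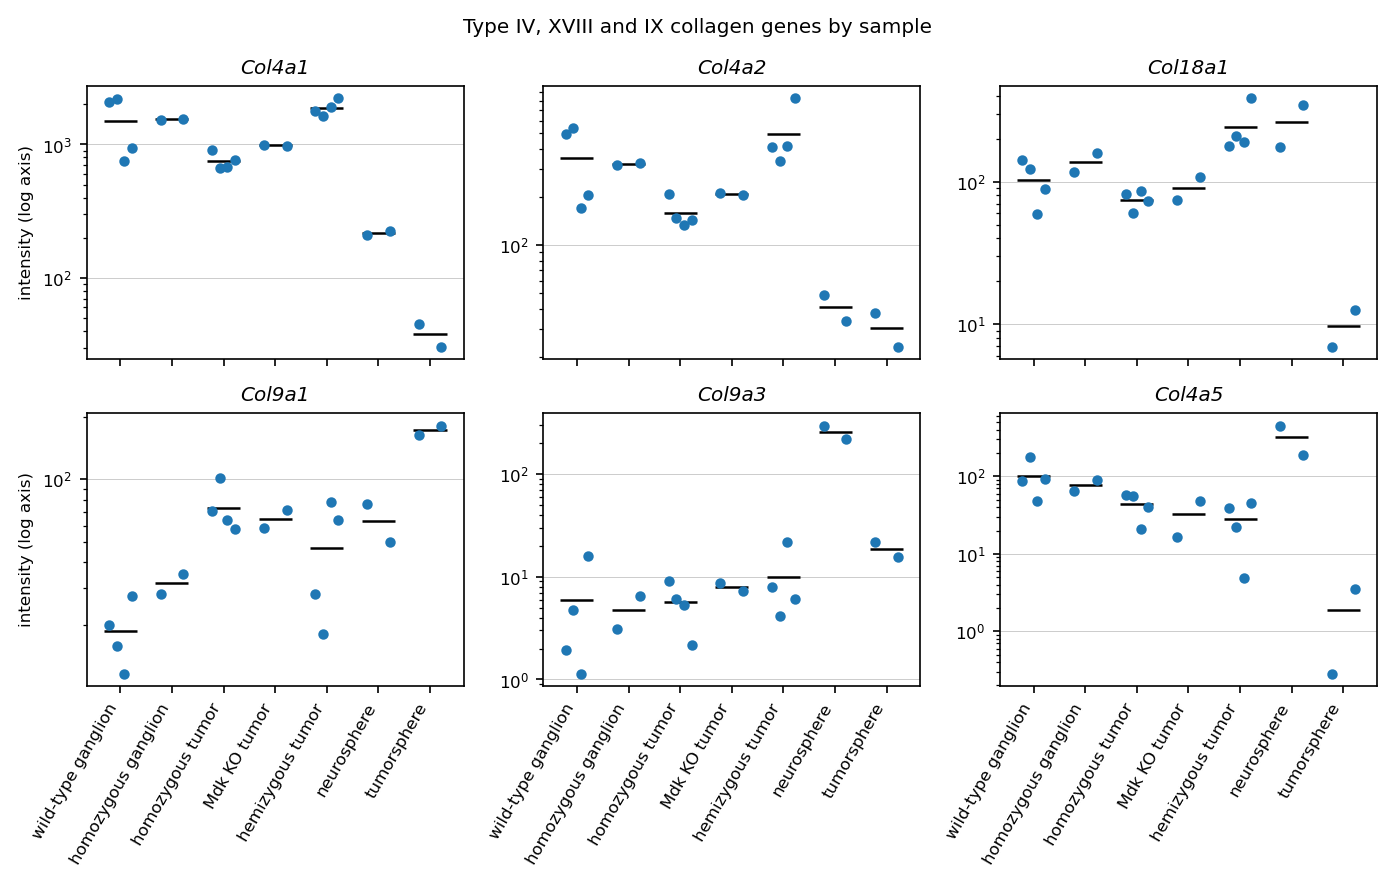
Intensity (log axis) of 6 collagen genes in every sample by group; points are samples and bars group means. Col4a1, Col4a2 and Col18a1 are higher in each hemizygous tumor than in any homozygous tumor, Col9a1 is highest in the tumorspheres, and Col9a3 and Col4a5 are highest in the neurospheres.

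Tumorspheres had lower values of 6 of 10 fibrillar, 2 of 6 type IV and 3 of 3 type VI collagen genes than hemizygous tumors. Of 36 collagen genes 18 were lower in tumorspheres than in hemizygous tumors and 1 was higher, against 6.99% and 5.61% of all genes, with a median of -0.91 (all genes 0.01). Col3a1 read 0.973 and 7.59 in tumorspheres, Col1a2 12.6 and 19.1, Col1a1 3.05 and 8.24, and Col5a2 8.99 and 4. Values this close to or below the added constant of 16 make the fitted differences understate the ratio of intensities. Col3a1 fell by 6.42 ± 0.54, Col1a2 by 5.49 ± 0.39, Col5a2 by 4.61 ± 0.36 and Col1a1 by 3.39 ± 0.49 (adjusted p between 4.0e-08 and 1.3e-04, limma).

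Of the type IV genes, Col4a1 and Col4a2 fell, while Col4a3 (0.13 ± 0.27), Col4a4 (-0.31 ± 0.31), Col4a5 (-1.19 ± 0.46) and Col4a6 (0.13 ± 0.22) did not pass. Col4a1 read 45.0 and 30.5, down from at least 1626, and fell by 5.14 ± 0.32, Col4a2 fell by 3.39 ± 0.39 to 37.6 and 23.2, and Col18a1 fell by 3.26 ± 0.32 to 6.97 and 12.6. Col6a1, Col6a2 and Col6a3 fell by 2.36 ± 0.43, 2.85 ± 0.28 and 3.76 ± 0.36, Col15a1 by 2.16 ± 0.29, Col14a1 by 3.37 ± 0.36 and Col5a1 by 2.55 ± 0.39. Col8a1, a network-forming chain of vessels and of the corneal endothelial membrane, fell by 4.52 ± 0.69 from between 194 and 1037 to 2.17 and 2.41. Col25a1 and Col11a1, already low in the tumors, differed by -0.36 ± 0.31 and -0.17 ± 0.31. The calls of Col12a1 (-1.38 ± 0.33), Col13a1 (-0.70 ± 0.19) and Col16a1 (-1.12 ± 0.35) were lost on leaving out either tumorsphere.

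Col9a1 ran against the other collagens. It read 163 and 181 in tumorspheres, above all other samples, and rose by 1.70 ± 0.32 (limma, adjusted p = 0.0017). The second Col9a1 probe set differed by 0.22, with means of 23.8 in tumorspheres and 19.1 in hemizygous tumors. Its partner chain Col9a3 read 22 and 15.5 and differed by 0.46 ± 0.26 (adjusted p = 0.30), and Col9a2 was not above 1.01 in either tumorsphere.

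Most endothelial and pericyte markers were also lower in tumorspheres, though not all were near 0, with Rgs5 at 48 and 56.2, Notch3 at 33 and 46.5 and the fibroblast marker Gsn at 80.3 and 124. Of 8 endothelial markers 8 were lower, with sums of 52.2 and 68.5 and Cdh5 at 0.716 and 0.690, and of 9 pericyte and smooth muscle markers 8 were lower, with sums of 168 and 248. The shares over all genes were 6.99% lower and 5.61% higher. Of 9 fibroblast markers 4 were lower, with sums of 133 and 209 and Pdgfra at 6.83 and 0.724. Adipocyte markers summed to 13.4 and 14.0 in tumorspheres, against 315 to 2083 in hemizygous tumors. Of 11 fibril partners 8 fell and none rose, among them Bgn (-4.52 ± 0.39) and Fn1 (-4.36 ± 0.37), and of 18 hydroxylases and chaperones 6 fell, among them Sparc (-5.50 ± 0.27), Serpinh1 (-2.80 ± 0.49) and Plod1 (-1.56 ± 0.31), a lysyl hydroxylase. Of 4 cross-linking genes 3 fell, led by Lox (-2.48 ± 0.39). The part of the lower stromal markers in the collagen values was not tested.

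Neurospheres of wild-type mice had lower values of 7 of 10 fibrillar genes and a higher value of 1 than wild-type ganglia. Against wild-type ganglia 21 of 36 fell and 5 rose, while 22.4% of all genes fell and 16.8% rose, and the median was -0.97 (all genes -0.12). Col3a1 read 245 and 12.5, Col1a2 83.1 and 11.6 and Col1a1 40.6 and 3.49, with neurosphere 1 higher than neurosphere 2 each time. They fell by 6.05 ± 0.54, 5.72 ± 0.39 and 5.12 ± 0.49. Col6a1, Col6a2 and Col6a3 fell by 3.48 ± 0.43, 5.07 ± 0.28 and 3.83 ± 0.36, Col14a1 by 4.46 ± 0.36, Col15a1 by 2.65 ± 0.29, Col5a1 by 2.51 ± 0.39 and Col5a2 by 2.45 ± 0.36. Col4a1 and Col4a2 fell by 2.54 ± 0.32 and 2.54 ± 0.39, and Col25a1 by 2.90 ± 0.31.

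The genes that rose were Col9a3, Col4a5, Col18a1, Col9a1 and Col11a1. Col9a3 read 295 and 219 in neurospheres and 1.13 to 15.8 in wild-type ganglia, and no other sample exceeded 22. It rose by 3.67 ± 0.26 (limma, adjusted p = 4.3e-09). Col4a5, an X-linked type IV chain, read 451 and 190 against 48.4 to 177 and rose by 1.52 ± 0.46, and Col18a1 read 175 and 345 against 59.6 to 141 and rose by 1.2 ± 0.32. Col11a1 read 306 and 94.1 against 54.9 to 120, with overlap, and rose by 0.90 ± 0.31, and Col9a1 read 76.2 and 50.1 and rose by 1.19 ± 0.32. Only the Col9a3 call did not depend on a single neurosphere: without neurosphere 1 the calls of Col4a5 (0.93), Col9a1 (0.95) and Col11a1 (0.12) were lost, and without neurosphere 2 that of Col18a1 (0.74). The Col11a1 call was also lost without the arrays high in muscle actin (0.66, adjusted p = 0.18). Neurosphere 1 had the high Ttr given above, and neurosphere 2 a 3' to 5' ratio of GAPDH of 11.5, against 2.56 to 4.49 in the other arrays.

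**Figure D5:**
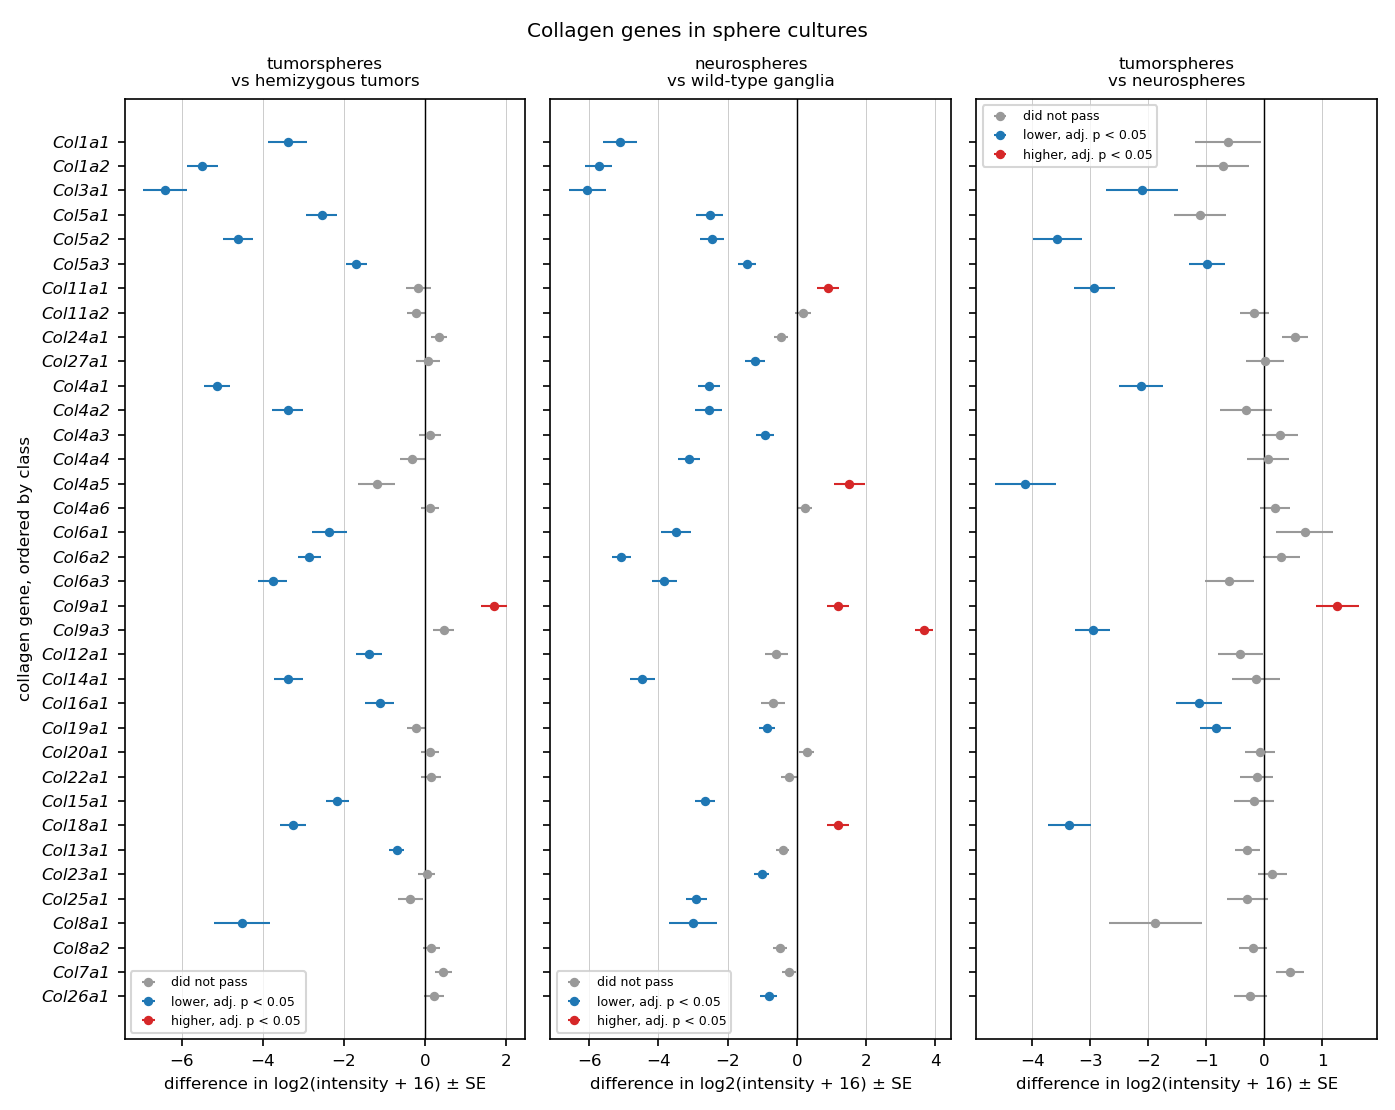
Differences in log2(intensity + 16) with their standard errors for the 36 tested collagen genes, ordered by class, in tumorspheres against hemizygous tumors (left), neurospheres against wild-type ganglia (middle) and tumorspheres against neurospheres (right); blue and red mark genes that passed. Col9a1 is marked as higher in all 3 panels, and Col9a3, Col4a5, Col18a1 and Col11a1 are marked as higher in the middle panel and as lower in the right one.

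The 2 kinds of sphere differed from each other in 11 collagen genes, 10 lower and 1 higher in tumorspheres, against 14.9% and 23.5% of all genes, with a median of -0.29 (all genes 0.11). The lowest were Col4a5 (-4.12 ± 0.53), Col5a2 (-3.57 ± 0.42), Col18a1 (-3.36 ± 0.37), Col9a3 (-2.96 ± 0.30) and Col11a1 (-2.93 ± 0.35). Col4a5 read 0.281 and 3.53 in tumorspheres, and Col5a2 8.99 and 4 there against 363 and 170 in neurospheres. All 5 genes were without overlap between the sphere types, but they were chosen as the lowest in this comparison, so this adds no support. Col4a1 fell by 2.13 ± 0.38, from 209 and 226 to 45.0 and 30.5, and Col4a2 differed by -0.31 ± 0.45. Col9a1 was higher by 1.26 ± 0.37 (limma, adjusted p = 0.012), a call lost without neurosphere 2 (1.03), without tumorsphere 2 (1.2) and on the mean of both probe sets (0.65). Col3a1 passed at -2.11 ± 0.62, but without neurosphere 1 it differed by -0.51 (adjusted p = 0.40). Without tumorsphere 2, 7 collagen genes passed in place of 11. Col1a1, Col1a2, Col5a1, Col6a1, Col6a2, Col6a3, Col15a1 and Col25a1 did not pass, with differences between -1.11 (Col5a1) and 0.70 (Col6a1).

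Some genes of the collagen machinery differed between the spheres too. Of 18 hydroxylases and chaperones 7 were lower and 2 higher in tumorspheres, against 14.9% and 23.5% of all genes. Among those lower were Serpinh1 (-4.61 ± 0.57), Sparc (-4.52 ± 0.31) and Plod2 (-2.13 ± 0.24), a lysyl hydroxylase of collagen ends. Adamts3, which cuts the amino end of procollagen, was lower by 3.01 ± 0.23, and Tnc, the matrix glycoprotein tenascin-C, by 6.24 ± 0.44. Adamts3 read 91.2 and 189 in neurospheres and 2.2 and 2.5 in tumorspheres. It was above the 40th percentile on the 2 neurosphere arrays only. It therefore entered the test through the group where it was high, and its call adds no independent support. Pcolce was higher by 3.91 ± 0.66.

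Whether culture changed collagen genes differently for the 2 sources was tested as an interaction, the tumorsphere minus hemizygous tumor difference less the neurosphere minus wild-type ganglion difference. It passed for 13 of 36 collagen genes, 8 above 0 and 5 below, against 17.8% and 14.7% of all genes, with a median of 0.15. The 5 below 0 were Col18a1 (-4.45 ± 0.46), Col9a3 (-3.21 ± 0.37), Col4a5 (-2.70 ± 0.65), Col4a1 (-2.60 ± 0.46) and Col5a2 (-2.16 ± 0.51). Col18a1 fell from tumor to tumorsphere and rose from ganglion to neurosphere, both past the threshold. Col4a5 rose from ganglion to neurosphere, and its difference of -1.19 from tumor to tumorsphere did not pass. The Col5a2 value was -0.84 with a pseudocount of 64 and -1.21 on the mean of all probe sets, and passed in neither. Those above 0 were led by Col4a4 (2.80 ± 0.44), Col25a1 (2.54 ± 0.44) and Col6a2 (2.22 ± 0.39). Without the arrays high in muscle actin the Col27a1 call (1.28 ± 0.41) was lost (0.93, adjusted p = 0.095), and Col1a1 (2.5) and Col4a2 (-1.60) passed. Col4a4 and Col25a1 were low in both cultures and in the tumors, and high in wild-type ganglia. Col1a1, Col1a2 and Col3a1 gave 1.72 ± 0.69 (adjusted p = 0.065), 0.23 ± 0.55 and -0.38 ± 0.76, the last being 1.87 with the second Col3a1 probe set. Each source of spheres was represented by 2 cultures, and genotype, tissue of origin and cell type cannot be told apart in this term.

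Other probe sets of the same genes were read where there were any, 15 of the 42 genes having 1 probe set only. For Col1a1 the second probe set differed by -1.30 and -0.74 in homozygous and hemizygous tumors against wild-type ganglia, with the same signs as the first. For Col3a1 the second probe set gave -2.56 and -2.41, larger falls than the first. Col5a1 had probe sets at -1.89, -0.74 and -0.07 for homozygous tumors, the last of them with a mean of 11.6. The second Col18a1 probe set was higher by 1.14 in hemizygous than in homozygous tumors and differed by 0.10 in neurospheres against wild-type ganglia, where the first gave 1.2. The second Col4a5 probe set was higher by 0.83 in neurospheres, and the second Col25a1 probe set, with a mean of 6.63, differed by -0.27 and 0.06 in the tumors. These further values carry no test of their own.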

How the data were processed

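The authors deposited 1 linear intensity per probe set and array. Dropping the top and bottom 2% of values left a mean of 100 on every array, which shows that arrays had been scaled before deposit. No source used here names the summarisation software. Per the labels' protocols, 40 ng of total RNA went through 2-cycle amplification. Here log2(intensity + 16) was taken without further normalization, since array medians spanned 0.33. Of 45101 probe sets, 34945 carried 1 gene symbol in the platform annotation, 932 several and 9160 none, and 64 were controls. Symbols were updated through a gene table (GRCm38.p6), which held 34741 of the 34945. The brightest probe set stood for each gene, and genes above the 40th percentile on at least 2 arrays were tested (15132 of 18193).

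The 20 arrays were fitted together, with a mean for each of the 7 groups and 13 residual degrees of freedom, by the lmFit and eBayes functions of limma (3.58.1, under R 4.3.3). Tests were two-sided, with Benjamini-Hochberg adjustment over all genes tested and a threshold of 0.05. Precision is limited by how few arrays each group has. No array was a copy of another (highest correlation 0.99, at most 0.0022% of values identical). This cannot show whether 2 arrays came from the same animal, RNA or culture. The steps were tested on simulated data.

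The members and the lists of other genes were chosen with earlier results of these data known. Genes named are a set of 16 collagen genes followed in every comparison, the 5 highest and 5 lowest collagen genes that passed in each, and from the lists of other genes those with the smallest p. Marker sums add linear intensities. Some genes of the lists were not analysed here. Alternatives were other normalizations, pseudocounts and filters, other probe set rules, a replicate block, and subsets of arrays, among them the omission of the 6 arrays with a muscle actin (Acta1) intensity over 100.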

Additional observations from a re-analysis of the deposited data

Results flagged for a closer look

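In 4 of 108 checks of a tested collagen gene in a group of 4 samples (3.7%), 1 sample lay far from the other 3 by Dixon's criterion, which chance alone meets in about 1 of 20 groups. Hemizygous tumor 4 had a Col4a2 intensity of 825, against 333 to 415 in the other hemizygous tumors, and a Col18a1 intensity of 383, against 177 to 209. It also had the highest endothelial and pericyte sums of that group (742 and 5572), and their part in these values was not tested. Homozygous tumor 2 had a Col11a2 intensity of 12.0 against 1.33 to 2.26, all of them dim, and homozygous tumor 1 a Col25a1 intensity of 24.3 against 15.8 to 16.2.

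The change from tissue to culture differed between hemizygous and wild-type sources in 13 of 36 tested collagen genes (interaction term in limma, adjusted p under 0.05 for each). Over all genes the term was positive in 17.8% and negative in 14.7% at the same threshold, close to the shares of the collagen genes. The term was negative for Col18a1 (-4.45), Col9a3 (-3.21), Col4a5 (-2.70), Col4a1 (-2.60) and Col5a2 (-2.16). It was positive for Col4a4 (2.80), Col25a1 (2.54), Col6a2 (2.22), Col27a1 (1.28), Col23a1 (1.06), Col4a3 (1.05), Col26a1 (1.04) and Col24a1 (0.81). Col27a1 lost its call on leaving out either tumorsphere, neurosphere 2 or the arrays high in muscle actin, and Col23a1 on leaving out tumorsphere 2 or neurosphere 2.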

How the results depend on the processing

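Counts of collagen genes that passed stayed within 1.5 times the reported count in all alternatives run, with these exceptions. In homozygous against wild-type ganglia, where none passed, 2 passed with quantile normalization, 1 with a pseudocount of 64, 2 with the mean of all probe sets, 2 without the arrays with an Acta1 intensity over 100 and 7 with wild-type ganglia 3 and 4 only; leaving out 1 array gave 0 to 3. In homozygous tumors against homozygous ganglia, where 14 passed, 8 passed with a pseudocount of 1, 9 without the arrays high in Acta1 and 22 with the compared arrays only; leaving out 1 array gave 4 to 13. In hemizygous against homozygous tumors, where 4 passed, 7 passed with the compared arrays only (6 higher and 1 lower). In tumorspheres against neurospheres, where 11 passed, 7 passed with a pseudocount of 64 and 7 to 11 when 1 array was left out. Of 3385 alternatives over 179 named results, 3139 kept direction and side of the threshold, 176 lost the call, 69 gained one and 1 reversed: with unmarked probe sets only, Col3a1 gave an interaction of 1.87 in place of -0.38, through its second probe set. Same-numbered arrays of compared groups had residual correlations from -0.32 to 0.28, and of 8 arrays in each comparison with 4 shared numbers 5, 0 and 0 correlated best with their own number, so the samples were not treated as paired. With the replicate block, 24 collagen genes passed in homozygous tumors against wild-type ganglia in place of 23, 11 in homozygous tumors against homozygous ganglia in place of 14, and the counts of the other 8 comparisons did not change. Causes of these changes were not tested. Dim genes near background and groups of 2 arrays limit the precision.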
